A study of Homo sapiens with 3 samples.

Results

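The transcripts described here encode 10 splicing factors: SRSF1, SRSF2, SRSF3, SRSF5, SRSF6, SRSF7, SRSF11, TRA2A, TRA2B and SNRNP70. They were chosen by gene ID, and every listed peak whose name starts with one of these IDs was taken. They are 10 of the 13356 gene IDs with a listed peak, and together they held 235 of 202310 peaks. RNA bound by CSTF2tau was recovered by sCLIP, in which ultraviolet light fixes proteins to the RNA they touch before the complex is pulled down and the RNA fragments are sequenced. The cells were BE(2)-C, an established neuroblastoma line, with the genotype given as WT and an antibody against CSTF2tau. There was 1 group of 3 biological replicates, with no treatment and no control library, so values were compared between replicates or with all other gene IDs.

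SR proteins carry an RNA recognition motif and a tail rich in serine and arginine, and they help the spliceosome choose exons. Many of their own genes are regulated by alternative exons or retained introns that send the RNA to decay, which keeps their protein level in bounds. CSTF2tau is a paralog of CSTF2, the subunit of the cleavage stimulation factor that binds U-rich or GU-rich RNA downstream of the cleavage site. U1 snRNP, which contains the SNRNP70 protein, is known to restrain cleavage within introns, and SRSF3 and SRSF7 are known to influence the choice of poly(A) site.

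The lists held 736059, 108434 and 387784 reads in peaks in replicates 1, 2 and 3, so replicate 2 gives the least precise values. A read count is the last number of a peak's name, a reading that no source states. Replicates 2 and 3 gave the same ID version for all 4414 gene IDs found in all 3 lists. Replicate 1 gave only 1-digit versions, and for 362 of the 2679 IDs with a 1-digit version in replicate 2 (13.5%) its version was another. Among the 10 transcripts the version of replicate 1 was a cut form of that in replicate 3, or equal to it, for all but SRSF1. Whether this touches the differences between replicates was not tested. No hg19 annotation was used here, so no peak was placed in an exon, intron or untranslated region. The listed span of a gene ID, which runs between its outermost peaks in any replicate, stands in for the gene below.

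Together the 10 transcripts took 0.178% of the listed reads in replicate 1 (1312 reads in 158 peaks), 0.191% in replicate 2 (207 reads in 25 peaks) and 0.0885% in replicate 3 (343 reads in 52 peaks). The exact 95% intervals, which cover counting error only, were 0.169 to 0.188%, 0.166 to 0.219% and 0.0793 to 0.0983%. Replicates 1 and 2 did not differ beyond their intervals, and replicate 3 lay below both. The mean was 0.153% ± 0.0559 (SD, n = 3). Of the 10 transcripts, 8 had peaks in all 3 replicates, against 33.0% of all gene IDs. SRSF7 and SRSF11 had no listed peak in replicate 2. Their mean shares in the other replicates would have given 4.62 and 13.5 reads there over the whole transcript. Each single peak needs at least 3 to be listed, and their peaks were spread over 11 and 21 separate positions. The count of 8 transcripts is not adjusted for the number of reads per gene, which was higher here than for most gene IDs. The median mean share was 0.00944%, against 0.00195% over all.

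**Figure D1:**
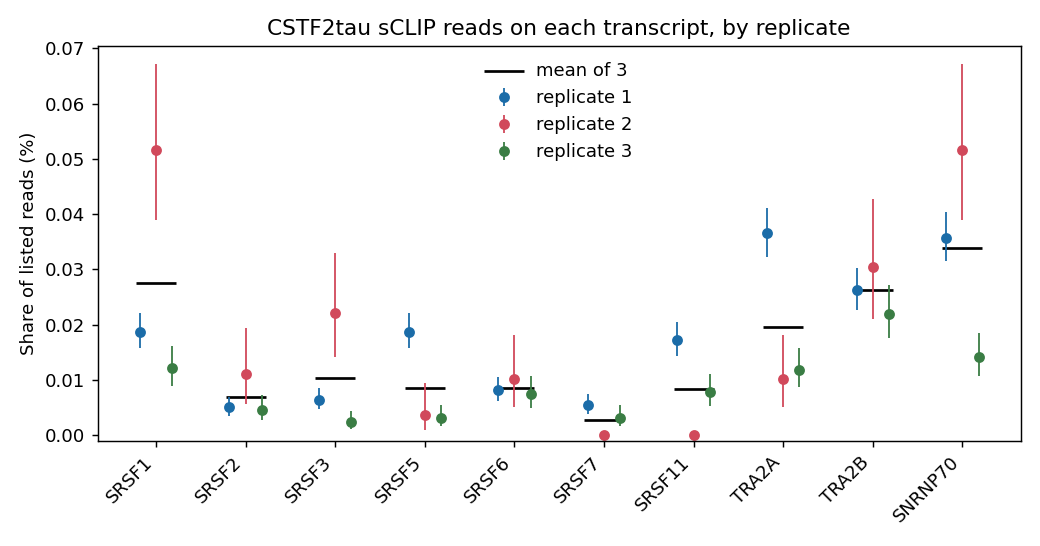
The share of each library's listed reads (percent, vertical axis) on each of the 10 transcripts, with 1 point per replicate, the mean as a black bar and exact 95% counting intervals as lines. SNRNP70 and SRSF1 reached 0.0516% in replicate 2, TRA2B and SRSF6 lay close together in all 3 replicates, and points at 0 (SRSF7 and SRSF11, replicate 2) carry no interval.

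Reads per 1000000 listed reads and per kb of listed span gave a level adjusted for span length, but not for the abundance of each RNA. SRSF1, SRSF2, SRSF5 and SRSF6, with the highest mean densities, also had the shortest spans, of 1.33 to 4.88 kb. The highest density was on SRSF1 (ENSG00000136450), which encodes the founding SR protein, at 76.1, 210 and 49.2 (mean 112 ± 85.9, SD, n = 3). Many of its reads lie in peaks that are also listed under another gene ID. Without these peaks, and over the full listed span, the densities of SRSF1 were 61.2, 0 and 4.18 (mean 21.8), below the mean of 51.8 of SRSF2. The peaks left lie within chr17:56082317-56083248, a shorter span over which the densities of replicates 1 and 3 would be higher. The rank of SRSF1 without the shared peaks thus depends on the span used. SRSF2 (ENSG00000161547), whose protein marks nuclear speckles, followed with densities of 37.7, 83.0 and 34.8. Both genes were highest in replicate 2. SRSF5 (ENSG00000100650), another exon-binding SR protein, came next by mean and was highest in replicate 1, with densities of 47.4, 9.33 and 7.83. SRSF6 (ENSG00000124193), an SR protein with paired RNA recognition motifs, had even densities of 16.7, 20.8 and 15.3. For SNRNP70 (ENSG00000104852), the U1-specific protein that touches the U1 stem loop, the densities were 16.1, 23.2 and 6.38.

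Lower densities were found on the remaining transcripts. TRA2B (ENSG00000136527), a splicing activator that binds purine-rich exonic enhancers, had 11.97, 13.9 and 10.0, the other even transcript. SRSF3 (ENSG00000112081), the smallest SR protein, had densities of 5.74, 19.9 and 2.09. TRA2A (ENSG00000164548), the paralog of TRA2B, had 13.5, 3.74 and 4.37 and was highest in replicate 1. For SRSF7 (ENSG00000115875), an SR protein with a zinc knuckle, the densities were 7.34 in replicate 1 and 4.18 in replicate 3. SRSF11 (ENSG00000116754), an SR-related protein that contacts spliceosomal proteins, had 6.67 and 2.99 in these replicates. Neighbours in this order overlapped within 1 SD throughout. With all its peaks, the density of SRSF1 was above that of each of the other 9 transcripts in all 3 replicates.

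The median density of the 10 was 13.6, against 1.35 over the 7095 gene IDs with at least 5 loci, a locus being a set of overlapping peaks of 1 gene ID joined over replicates. Their spans were shorter, with a median of 9.27 kb against 45.3 kb, and no allowance was made for stretches without peaks. By mean density, SRSF1 stood above 97.5% of all gene IDs, SRSF2 above 93.1% and SRSF11, the lowest of the 10, above 58.4%. This ranking was over all 13356 gene IDs, also those with fewer than 5 loci. The rank of SRSF1 used all its peaks. Without the shared peaks its mean of 21.8 over the full listed span was near the 21.5 of SRSF5, which stood above 80.3%.

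Replicates differed in how much they gave to each transcript. The highest share was more than 2-fold the lowest for 6 of the 8 transcripts listed in all 3 replicates, against 77.4% of all such gene IDs, so the spread was like that of the lists as a whole. SRSF3 had the widest, 9.54-fold, with 47, 24 and 9 reads in replicates 1, 2 and 3, followed by SRSF5 at 6.06-fold, with 138, 4 and 12 reads. TRA2B had 193, 33 and 85 reads, a share of 0.0262%, 0.0304% and 0.0219% and a spread of 1.39-fold. SRSF6 had 60, 11 and 29 reads, or 0.00815%, 0.0101% and 0.00748%, a spread of 1.36-fold. For TRA2B and SRSF6 the intervals of all 3 replicates overlapped. Across the 10 transcripts shares had a Spearman correlation of 0.72 between replicates 1 and 3, of 0.35 between 1 and 2 and of 0.54 between 2 and 3, as a description of genes that differ in length and abundance.

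Most bound positions on the 10 transcripts were listed in 1 replicate. Peaks that touch without overlapping can count as separate loci. In replicate 1, 25.9% of the peaks on the 10 transcripts touched a neighbour, against 7.74% of all peaks. The 235 peaks formed 190 loci. Of these, 30 had peaks in more than 1 replicate (15.8%, against 8.54% of all 182182 loci) and 3 in all 3 (1.58%, against 0.882%). By reads, 29.6%, 65.7% and 64.1% of those on the 10 transcripts in replicates 1, 2 and 3 lay in loci of more than 1 replicate, against 21.6%, 44.7% and 24.3% over all gene IDs. The means were 53.1% ± 20.4 and 30.2% ± 12.6 (SD, n = 3). Peaks on the 10 transcripts also held more reads, 8.30, 8.28 and 6.60 each against 6.997, 5.91 and 4.92, and the part of this in the recurrence was not tested. Any pair of replicates alone gave 20.1 to 36.8% for the 10 transcripts, and fewer lists leave fewer chances to overlap.

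**Figure D2:**
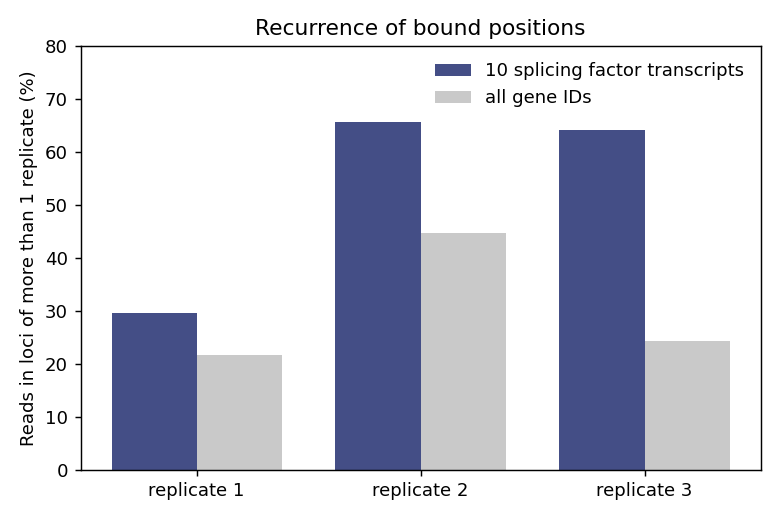
Percent of listed reads (vertical axis) in loci with peaks in more than 1 replicate, for the 10 transcripts (dark) and all gene IDs (grey), with 1 bar each per replicate. The dark bars reach 29.6%, 65.7% and 64.1%, and the grey bars 21.6%, 44.7% and 24.3%.

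The 3 loci found in every replicate lay on TRA2B and SNRNP70. On TRA2B they were chr3:185634301-185634523 (minus strand, hg19), with 6, 6 and 18 reads, and chr3:185634947-185635042, with 13, 5 and 5 reads. On SNRNP70 the locus was chr19:49605991-49606135 (plus strand), with 24, 11 and 8 reads. Among loci of 2 replicates, the one with the highest mean share was taken for each other transcript. For SRSF1 this was chr17:56080784-56080850 (minus strand), with 0, 40 and 15 reads. For SRSF2 it was chr17:74730135-74730220 (minus strand), with 0, 9 and 10 reads. SRSF6 had chr20:42091080-42091259 (plus strand) with 22, 7 and 0 reads, and SRSF5 had chr14:70238733-70238820 (plus strand) with 0, 4 and 8. On TRA2A it was chr7:23564994-23565100 (minus strand), with 12, 0 and 13 reads. SRSF3 had chr6:36569890-36569971 (plus strand) with 11, 0 and 6 reads, and SRSF11 had chr1:70696387-70696526 (plus strand) with 6, 0 and 8. SRSF7 had 8 peaks in replicate 1 and 3 in replicate 3, and none overlapped.

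Within the 30 loci of more than 1 replicate, the short stretch that the lists mark inside each peak was placed within a median of 22.5 nt between replicates (range 2 to 116 nt). The closest were chr14:70238733-70238820 on SRSF5, where the marks of replicates 2 and 3 were 2 nt apart, and on TRA2A and TRA2B a locus each with 3 nt.

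**Figure D3:**
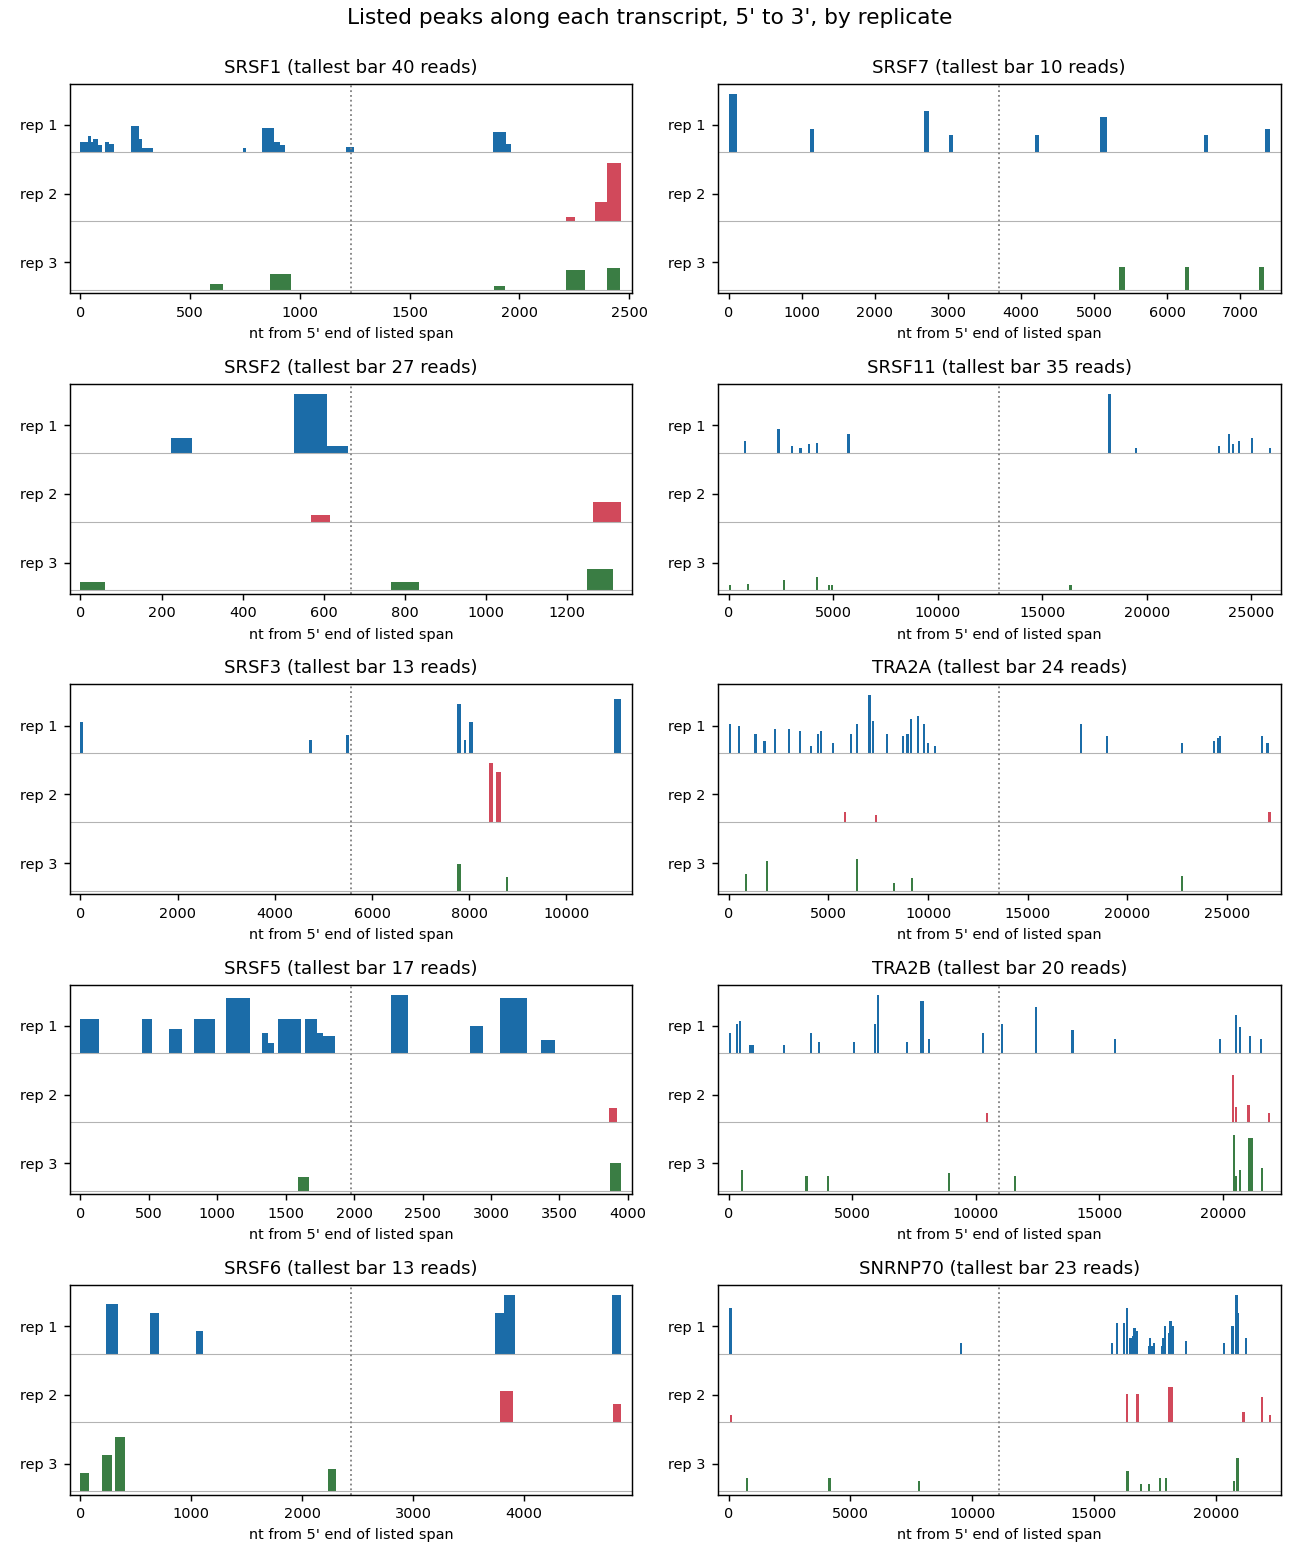
Listed peaks of each transcript from the 5' to the 3' end of its listed span (horizontal axis, nt), with 1 track per replicate; bar height is the reads of a peak, scaled to the tallest bar of that transcript as named in its title, very narrow peaks are widened to be visible, and the dotted line marks the middle. In replicate 2 all 3 peaks of SRSF1 and 4 of the 5 of TRA2B lie at the right, while replicate 1 has peaks along these spans.

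A set of 5 loci was present in replicates 2 and 3 but missing from replicate 1, and all of them lay near the 3' end of the listed span; they were singled out after their values were seen. They make up 2.63% of the 190 loci, against 0.930% of all loci, and they held 72 of the 207 reads of replicate 2 (34.8%) and 66 of the 343 reads of replicate 3 (19.2%), against 14.3% and 3.64% over all gene IDs. Beside the loci of SRSF1, SRSF2 and SRSF5 given above, they were chr17:56080951-56081035 on SRSF1, with 3 and 14 reads, and chr3:185635057-185635141 on TRA2B, with 16 and 19. On SRSF1, SRSF2 and SRSF5 the locus given above itself sets the 3' end of the listed span, so its place there follows from the definition. Measured from that end, the last peak of replicate 1 ended 505 nt short on SRSF1, 674 nt short on SRSF2 and 486 nt short on SRSF5. On TRA2B, replicate 1 had peaks on both sides of the missing locus. Of the 72 and 66 reads of this set, 40 and 15 lay at chr17:56080784-56080850 on SRSF1. Replicate 1 had 2 peaks with 14 reads overlapping that SRSF1 locus, but under another gene ID. Counted by position, that locus was thus not missing from replicate 1.

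SRSF1 was the only one of the 10 with peaks of another gene ID inside its listed span on either strand. ENSG00000266086, not named in the sources used here, ran over chr17:56069964-56082558 on the same strand and covered 4 of the 17 SRSF1 peaks of replicate 1, all 3 of replicate 2 and 4 of the 5 of replicate 3. The same signal was thus listed under both IDs, with 40 reads each at chr17:56080784-56080850 in replicate 2. In replicate 1 this ID had 2 peaks with 14 reads that overlapped that locus by 44 nt, where SRSF1 itself had none. Counted under either ID, it was therefore present in all 3 replicates, the only one of the 19 SRSF1 loci for which this held. Beyond the 3' end of the SRSF1 span, ENSG00000266086 had a further 155, 23 and 103 reads. Without the SRSF1 peaks that this ID overlaps, an alternative chosen after seeing the data, 111 of the 138 reads of replicate 1 were left, none of the 56 of replicate 2 and 4 of the 47 of replicate 3. With such peaks left out of the libraries as well, the mean share of SRSF1 was 0.00601%, against 0.0275% with all peaks. The reads of SRSF1 are for these reasons uncertain, and so is its density, which rests on a span of 2.46 kb. No other of the 10 transcripts had peaks of another ID on its strand within 5 kb downstream of its span.

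TRA2B had a cluster of recurring loci near its 3' end. Of its 6 loci in more than 1 replicate, 5 lay within 1.24 kb at chr3:185633898-185635141, close to the 3' end of its 21.9 kb span. They held 27 of 33 reads in replicate 2 (81.8%) and 57 of 85 in replicate 3 (67.1%). In replicate 1 they held 33 of 193 (17.1%), and the other reads were spread over the span. The gene as a whole thus had an even share of the reads in all 3 replicates, while the part of them in this cluster was far lower in replicate 1.

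SNRNP70 had most of its reads in the 3' part of its span in every replicate. It had 263, 56 and 55 reads in all, and 8 loci in more than 1 replicate, the most of the 10 transcripts; 7 of these lay in the last 6 kb of its 22.2 kb span. The remaining one, chr19:49589682-49589804 at the 5' end, had 18, 3 and 0 reads. The 1 kb window with the most reads held 93 of the 263 reads of replicate 1 (35.4%), 22 of the 56 of replicate 2 (39.3%) and 11 of the 55 of replicate 3. Replicate 1 had 10 peaks in this window, with a median width of 43.5 nt, and replicates 2 and 3 had 2 each, with medians of 111.5 and 83.5 nt.

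SRSF11 and TRA2A had peaks over long spans. The tallest peak of SRSF11, chr1:70710366-70710496, held 35 of the 127 reads of replicate 1 (27.6%) and was listed in no other replicate. TRA2A had 269, 11 and 46 reads in 31, 3 and 6 peaks, and no 1 kb window held more than 19.9% of them. SRSF3 was more compact: the 1 kb window with the most reads, which starts at chr6:36569890, held 21 of 47 reads in replicate 1, and all of them in replicates 2 (24) and 3 (9). These windows were picked as the densest, so their shares are a description.

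CSTF2tau belongs to a factor that acts at the 3' end of mRNAs, so each listed span was divided at its middle, and the reads of its 3' part were compared with those of its 5' part. In replicate 2 nearly all reads on the 10 transcripts lay in the 3' part, 191 against 16 (92.3%, against 52.7% over all gene IDs tested). In replicate 1 it was 596 against 716 (45.4%, against 44.1%), and in replicate 3 187 against 156 (54.5%, against 44.9%). The mean was 64.1% ± 24.8 (SD, n = 3), so the replicates did not share a value. SRSF1 and SNRNP70 gave 56 and 53 of the 191 reads in replicate 2. In that replicate 7 of the 8 transcripts with reads had at least 75.0% of them in the 3' part, and TRA2A had 36.4%.

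**Figure D4:**
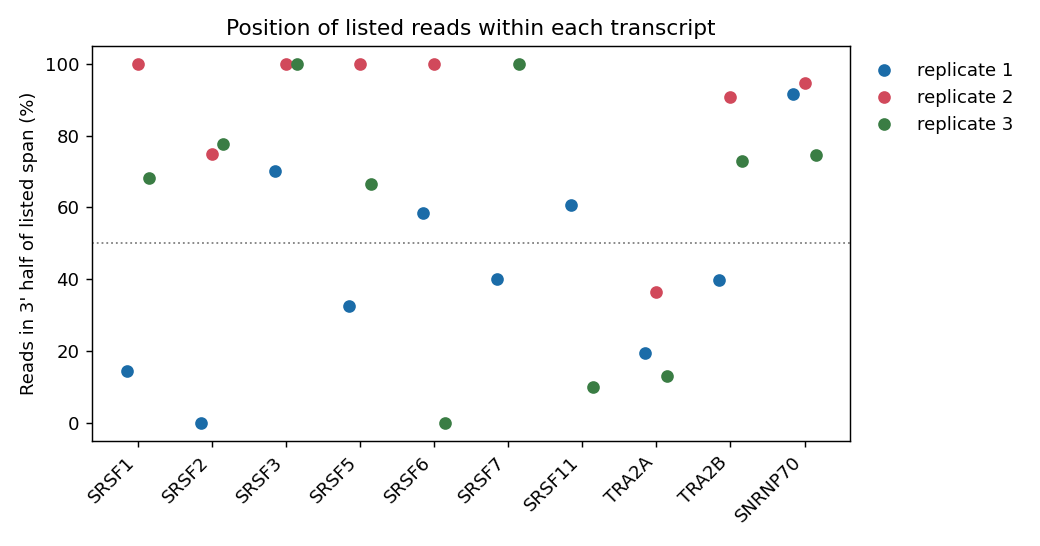
Percent of each transcript's listed reads in the 3' part of its listed span (vertical axis), with 1 point per replicate and a dotted line at 50. SNRNP70 and SRSF3 lie above the line and TRA2A below it in every replicate, while SRSF1, SRSF2, SRSF5 and TRA2B are below it in replicate 1 and above it in replicates 2 and 3.

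A gene ID was called when its reads, summed over replicates, differed between the parts (exact two-sided binomial test, Benjamini-Hochberg adjusted p below 0.05 over all 6866 gene IDs tested) and every replicate that had reads there leaned the same way. Of the 10 transcripts, 2 were called with more reads in the 3' part, against 20.7% of all gene IDs tested, and 1 with more in the 5' part, against 19.1%. These numbers are near the background, so the calls did not set the 10 apart. The share of pooled reads in the 3' part, given above, was higher than over all gene IDs tested in each replicate, though by little in replicate 1. In replicate 1, SNRNP70 alone gave 241 of the 596 reads of the 3' part, but 22 of the 716 of the 5' part. SRSF3, SRSF6 and SRSF11 also leaned to the 3' part there, while SRSF1, SRSF2, SRSF5, SRSF7, TRA2A and TRA2B leaned to the 5' part. The median log2 ratio of 3' to 5' reads was -0.09, against 0.03 over all gene IDs tested.

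SNRNP70 was called at the 3' part, its replicates having 241 against 22, 53 against 3 and 41 against 14 reads. This gave an adjusted p of 3.2e-58 by the exact binomial test, at a log2 ratio of 3.09. SRSF3 was called the same way, with 33 against 14, 24 against 0 and 9 against 0 reads (adjusted p = 1.5e-08 by the exact binomial test, log2 ratio 2.20). TRA2A was called at the 5' part, with 52 reads in the 3' part against 217, then 4 against 7 and 6 against 40. The adjusted p was 1.4e-29 by the exact binomial test at a log2 ratio of -2.08, but TRA2A was not called with the outer 20% or 10% of the span (log2 ratio -1.32 and -1.20 over the summed reads). With the outer 20% the 3' end had 33 reads against 89 and 6 against 19 in replicates 1 and 3, but 4 against 0 in replicate 2, so the replicates leaned different ways. The test takes reads as independent, which reads of 1 peak are not, so these p-values understate the counting error and cover no other. With each peak counted once, the adjusted p by the exact binomial test was 7.9e-07 for SNRNP70 and 0.0093 for TRA2A. SRSF3 had too few peaks to be tested that way.

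The other 7 transcripts were not called, and in each of them the replicates leaned different ways. On SRSF1 the 3' part had 20 reads against 118 in replicate 1, but 56 against 0 and 32 against 15 in replicates 2 and 3. SRSF2 had 0 against 37, 9 against 3 and 14 against 4, and SRSF5 had 45 against 93, 4 against 0 and 8 against 4. TRA2B had 77 against 116, 30 against 3 and 62 against 23. In each of these 4, replicate 1 leaned to the 5' part and replicates 2 and 3 to the 3' part. For SRSF1, most reads of replicates 2 and 3 lay in peaks that another gene ID overlaps. Over the summed reads, SRSF2 (log2 ratio -0.92, adjusted p = 0.026, exact binomial test) and SRSF5 (-0.76, adjusted p = 0.0036) differed between the parts, in the direction of replicate 1.

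On SRSF6, SRSF11 and SRSF7 replicates 1 and 3 leaned opposite ways. On SRSF6 the 3' part had 35 reads against 25 and 11 against 0 in replicates 1 and 2, but 0 against 29 in replicate 3. SRSF11 had 77 against 50 in replicate 1 and 3 against 27 in replicate 3, with no peak in replicate 2. SRSF7 had 16 against 24 in replicate 1 and 12 against 0 in replicate 3.

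The calls of SNRNP70 and TRA2A were made with each replicate left out in turn. For TRA2A the log2 ratio was -2.18, -2.14 and -1.99 without replicates 1, 2 and 3. SRSF3 was called without replicate 2 or 3 and had too few loci to be tested without replicate 1. Leaving out 1 replicate also gave calls on 4 transcripts that had none with all 3. Without replicate 1, SRSF1 was called at the 3' part (log2 ratio 2.51, exact binomial test, adjusted p = 1.3e-12). For that call, all 56 reads of replicate 2 and 43 of the 47 of replicate 3 lay in peaks overlapped by ENSG00000266086. TRA2B was also called at the 3' part without replicate 1 (1.80, exact binomial test, adjusted p = 7.0e-09). SRSF11 was called at the 5' part (-2.97, exact binomial test, adjusted p = 4.3e-05). Without replicate 3, SRSF6 (0.87, exact binomial test, adjusted p = 0.029) and SRSF11 (0.62, adjusted p = 0.035) were called at the 3' part, the latter on replicate 1 alone, since it had no peak in replicate 2. Each part is set by the outermost listed peaks, whose edges are not annotated transcript ends.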

How the data were processed

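The authors deposited 1 list of peaks per replicate. The build is hg19, and STAR, SAMtools, bedtools and FastQC were used, per the submitters' processing notes, which give no version or role. The peak caller and the gene models are not given in the sources used here. Deposited p-values served as a filter in an alternative and to read the peak names. The last whole number of a peak's name was read as its reads, since it fell as the p-value rose (Spearman -0.988, -0.973 and -0.964). The lists hold only peaks of at least 3 reads, so sequencing depth is unknown and no limit was set for an absent transcript.

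Peaks of 1 gene ID that overlapped by at least 1 nt were joined into loci. The parts of a listed span on either side of its middle were compared for gene IDs with at least 5 loci and 20 reads there, using the marked stretch of each peak; log2 ratios carry 0.5 reads added to each side. Intervals are exact Clopper-Pearson intervals. All 10 transcripts were named, with the loci found in all 3 replicates or else the locus of 2 replicates with the highest mean share. The 10 transcripts, the lists and the tests were chosen with earlier results of these data known. Gene names come from the choice of members; the reference table named 0 of the listed IDs, so a list of 23 other splicing genes was not analysed here, and neither were sequences of the peaks. Alternatives were the peaks kept, peaks in place of reads, the overlap, the window and each replicate left out. The span test was checked on simulated reads drawn independently of each other, so the check does not cover reads that share a peak. Python 3.11.15, pandas 2.3.3 and scipy 1.17.1 were used.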

Additional observations from a re-analysis of the deposited data

How the results depend on the processing

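Under the alternatives, 49 of 60 values of the joint results stayed within 1 SD of the replicates or within 1.5 times for counts and densities, and 11 moved further. The joint share of 0.153% was between 0.133% and 0.185% with each replicate left out in turn. Loci in every replicate numbered 3, and 8 to 19 with each replicate left out. With 1 left out a locus needs peaks in fewer lists, so this rise follows largely from the definition. These values are among the 11 that moved, but say little about the processing. The share of reads in recurring loci was 20.1 to 36.8% with each left out, against 53.1%. Without replicates 1, 2 and 3, transcripts called at the 3' part numbered 3 of 6 tested, 2 of 10 and 4 of 9, against 19.7%, 22.3% and 28.0% of all gene IDs tested. They numbered 1 of 9 with the outer 20% of the span (against 23.3%) and 1 of 5 with each peak counted once (against 11.9%). At the 5' part they numbered 2 of 6, 1 of 10 and 1 of 9 without each replicate, against 20.04%, 24.9% and 21.4%. With the outer 20% or 10% they were 0 of 9 and 0 of 8 (against 20.4% and 19.4%). In the ratio of single transcripts, 4 of 84 alternative values changed sign with a call: SRSF1 (-1.20 to 2.51 with each replicate left out), SRSF6 (-1.36 to 0.87), SRSF11 (-2.97 to 0.62), and SRSF2 with the outer 10% (2.12). The cause was not tested. Leaving out peaks overlapped by another gene ID was chosen after seeing the data and left a joint share of 0.148%, a mean share of SRSF1 of 0.00601% (0.0275% with all peaks) and 7 transcripts in all 3 replicates, without SRSF1. No paired analysis was possible because there is 1 group. Replicate 2, with 207 reads on these transcripts, limits the values that need all 3.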

Other observations

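Neighbouring peaks often touched on SRSF1 and SNRNP70 in replicate 1; these transcripts were singled out after their values were seen. Of their 49 peaks there, 30 (61.2%) shared an edge with a neighbouring peak, against 7.74% of all peaks of that replicate. On SRSF1 it was 15 of 17 and on SNRNP70 15 of 32. On the other 8 transcripts it was 11 of 109 (10.1%), with none on SRSF3, SRSF7, SRSF11 and TRA2B. The touching peaks there were 2 of 3 on SRSF2, 5 of 15 on SRSF5, 2 of 6 on SRSF6 and 2 of 31 on TRA2A. Touching peaks were thus not limited to SRSF1 and SNRNP70. Over all 10 the numbers were 2 of 25 in replicate 2, against 3.44%, and 0 of 52 in replicate 3, against 1.11%. SRSF1 had a median peak width of 22 nt in replicate 1, against 53 and 60 nt in replicates 2 and 3. The running numbers of the peak names followed position on all 10 transcripts. On SNRNP70 in replicate 1 they reached 64 with 32 peaks listed, and on SRSF1 in replicate 1 the first listed number was 4, at the 3' side of the span.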
